A study of Mus musculus with 72 samples.

Results

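Malat1, Neat1, Kcnq1ot1, Meg3 and Rian are long noncoding RNAs that stay in the nucleus. They were followed here across 4 organs of mice fed either form of coenzyme Q10. They are 5 of 18194 genes named by the platform table, and 30 of the array's 45101 probe sets carry their symbols: 7 for Malat1, 2 for Neat1, 6 for Kcnq1ot1, 11 for Meg3 and 4 for Rian. A probe set is a group of short probes against a stretch of a transcript, and each was followed on its own. The genes were selected on earlier results of these data, in which Malat1 had been named for its difference between QH2 and control livers at 14 months, so that comparison is described without a test.

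All mice were female SAMP1, the senescence-accelerated mouse prone 1 strain, which develops signs of ageing early; no slower-ageing strain was among the samples. From 4 weeks of age they received a control diet, a diet with the oxidized form of coenzyme Q10 (Q10) or a diet with the reduced form (QH2), both at 500 mg per kg body weight per day as estimated from food intake. The diet was given for 6 or 14 months, which took the mice to 7 or 15 months of age. Liver, kidney, heart and brain RNA of 3 mice per diet and duration was hybridised to 1 array each, which gave 72 arrays in 24 groups of 3. Age and time on the diet change together between the durations. They cannot be told apart from each other or from any array batch that went with the durations. Coenzyme Q10 carries electrons in the mitochondrial respiratory chain, and the reduced form is also an antioxidant in membranes.

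Malat1 is among the most abundant RNAs of the nucleus and gathers in nuclear speckles, where splicing factors are stored. Neat1 is the scaffold on which paraspeckles are built, together with DBHS proteins such as Sfpq and Nono. Kcnq1ot1 is transcribed antisense to Kcnq1 from the paternal chromosome and silences neighbouring genes of that imprinted domain in cis. Meg3 and Rian are transcribed from the maternal chromosome in the Dlk1-Dio3 imprinted domain, and Rian hosts small nucleolar RNAs. In the brain, Meg3 and Rian are known as neuronal transcripts, and Malat1 has been linked to synaptic genes.

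Because Meg3 and Rian share a domain, the stretches around their annotated starts are shown first, followed by those of Malat1 and Kcnq1ot1. The sequences are RefSeq's for assembly GRCm38.p6, from 250 bases before to 50 bases after the start, 5′ to 3′ on the gene's strand. RefSeq's table held 4 of the 5 genes, all but Neat1. Capitals mark matches, on either strand, to the cAMP response element TGACGTCA, the CCAAT box and the TATA box TATAAA.
Meg3 (chr12:109540746-109541045, plus strand): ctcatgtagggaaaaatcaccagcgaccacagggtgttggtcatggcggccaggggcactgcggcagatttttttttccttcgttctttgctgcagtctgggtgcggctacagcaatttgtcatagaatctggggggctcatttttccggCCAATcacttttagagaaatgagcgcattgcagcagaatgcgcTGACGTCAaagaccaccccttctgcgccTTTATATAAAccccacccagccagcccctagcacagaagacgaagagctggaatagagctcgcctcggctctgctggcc
Rian (chr12:109603695-109603994, plus strand): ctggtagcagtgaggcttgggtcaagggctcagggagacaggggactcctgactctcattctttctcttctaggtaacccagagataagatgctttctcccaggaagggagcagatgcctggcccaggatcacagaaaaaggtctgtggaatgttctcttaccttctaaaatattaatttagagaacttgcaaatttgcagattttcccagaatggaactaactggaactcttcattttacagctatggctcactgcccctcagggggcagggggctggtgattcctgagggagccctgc
Malat1 (chr19:5802623-5802922, minus strand): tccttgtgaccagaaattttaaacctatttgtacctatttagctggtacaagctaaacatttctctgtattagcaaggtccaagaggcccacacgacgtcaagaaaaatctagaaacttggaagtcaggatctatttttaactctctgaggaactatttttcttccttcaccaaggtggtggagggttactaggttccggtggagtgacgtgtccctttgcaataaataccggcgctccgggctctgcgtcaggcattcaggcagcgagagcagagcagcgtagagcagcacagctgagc
Kcnq1ot1 (chr7:143296498-143296797, minus strand): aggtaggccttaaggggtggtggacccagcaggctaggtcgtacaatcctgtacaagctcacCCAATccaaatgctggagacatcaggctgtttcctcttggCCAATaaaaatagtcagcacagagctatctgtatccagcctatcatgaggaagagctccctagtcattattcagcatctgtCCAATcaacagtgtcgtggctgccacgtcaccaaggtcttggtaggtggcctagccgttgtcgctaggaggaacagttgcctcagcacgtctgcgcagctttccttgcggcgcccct

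The Meg3 window held 1 match to TGACGTCA, 1 CCAAT and 2 overlapping TATAAA matches, one on each strand. Kcnq1ot1 held 3 CCAAT matches, and the Rian and Malat1 windows held none of these letters. Among 32851 promoter windows of the same length, 1.79% held TGACGTCA, 37.4% held CCAAT and 13.6% held TATAAA. A match describes the letters in the window and is not a site of binding.

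The deposited signals differed in overall brightness, with array medians from 7.5 to 40.3, so signals were quantile normalised within each organ before testing. Each organ expressed its own markers: the summed level of the neuron list was 27449 to 34332 in brain arrays and at most 379.6 elsewhere, and the hepatocyte, kidney tubule and cardiomyocyte lists were likewise highest in their organs. The ratio of the 3′ to the 5′ Actb control probe set, a sign of RNA integrity, ran from 1.656 to 1.946 in brain, 1.684 to 2.215 in heart, 1.639 to 3.37 in kidney and 1.586 to 7.363 in liver. In the livers of Q10 mice at 14 months, the summed macrophage markers, normalised within liver, lay between 5338 and 20068, against 885.3 to 1991 in control livers. After a filter on low signals, 27022 probe sets per organ entered the test, among them 29 of the 30 in brain, 20 in liver, 18 in kidney and 16 in heart. All 4 Rian probe sets were below the filter outside the brain.

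Meg3 and Rian had their highest median in brain at every probe set, whereas no organ stood clear above the rest for Malat1, Neat1 or Kcnq1ot1. Outside the brain Meg3 still passed the filter at 8 of 11 probe sets in liver, 5 in kidney and 6 in heart. Kcnq1ot1 passed it in heart at 1 of 6. On a scale common to all 72 arrays, Meg3 probe set 1439380_x_at had a median signal of 2261 in brain (598.6 to 3968), 106.2 in liver (46.3 to 194.7), 59.74 in heart (43.01 to 114.3) and 18.46 in kidney (4.743 to 188.9), with 18 arrays each. The lowest brain array lay above the highest array of every other organ for this and all 11 Meg3 probe sets, and the brain median exceeded the next organ's by 14.98 to 349.4 times. For Rian 1452899_at the medians were 504.9 in brain (246.7 to 814.1), 9.976 in liver, 7.817 in heart and 3.312 in kidney. Brain stood clear of the other organs for 3 of the 4 Rian probe sets, and the other organs overlapped with each other. These levels are given as a description, without a test.

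Malat1 had its lowest median in heart for all 7 probe sets and its highest in brain for 6 of them, with overlap between brain and kidney throughout. The brightest, 1438403_s_at, had medians of 8151 in kidney (5896 to 10315), 7365 in brain (2897 to 11872), 3652 in liver (525.3 to 5977) and 1050 in heart (236.1 to 1756). The wide brain range holds 2 levels, with a median of 11628 at 6 months and 4149 at 14 months. Neat1 was ordered differently. Its probe set 1428083_at was highest in kidney (median 808.2, 344.6 to 1460), followed by heart (401.9, 179.2 to 714.9), liver (322.1, 134.8 to 896.7) and brain (163.3, 81.22 to 225.9), and each organ overlapped with the next. Kcnq1ot1 1458161_at had close medians in brain (119, 54.19 to 196.2) and liver (117.7, 27.28 to 255.9), followed by kidney (88.57, 15.03 to 172.5) and heart (21.28, 1.34 to 38.44). Heart had the lowest Kcnq1ot1 median for 5 of the 6 probe sets, and neighbouring organs overlapped for each of them.

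**Figure D1:**
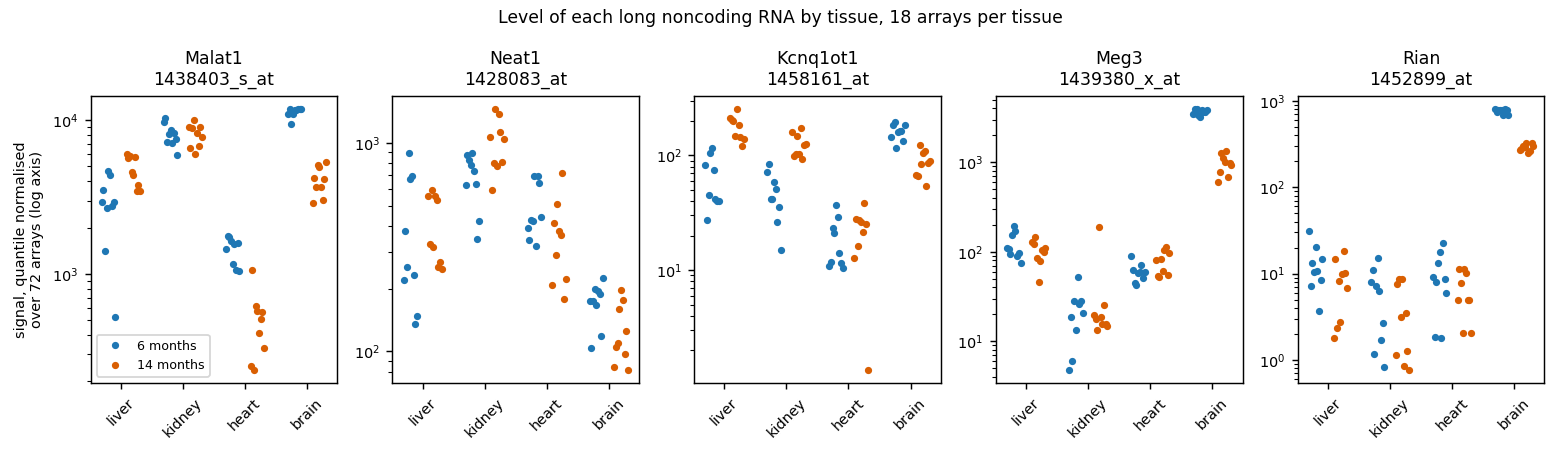
Signal (log axis, arbitrary units, quantile normalised over 72 arrays) of the brightest probe set of each RNA in the 4 organs; each point is 1 array, blue at 6 months and orange at 14 months. The Meg3 and Rian points of brain sit above those of every other organ, while Malat1, Neat1 and Kcnq1ot1 overlap between neighbouring organs, and the brain points of Malat1 fall into separate blue and orange groups.

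Brain at 14 months had lower signals of Meg3, Rian, Malat1 and Kcnq1ot1 than brain at 6 months, whereas the Neat1 probe sets went opposite ways. Of the 29 probe sets tested, 28 were lower and 1 was higher at 14 months in limma's test at an adjusted p under 0.05, with a median log2 difference of -1.51 over the 29. The background was high, since 56.2% of all tested probe sets were called (28.5% higher and 27.7% lower) with a median of 0.01. In 24 of the 29, all 9 arrays at 14 months lay below all 9 at 6 months, which held for 9.03% of all tested probe sets. The 29 probe sets measure only 5 RNAs, 11 of them Meg3, so they are not independent of each other. The arrays within each duration pool the 3 diets with equal weight, and mean differences below are over diets (n = 9 and 9). Fewer cells that express a transcript and less transcript per cell cannot be told apart in whole-organ RNA.

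Meg3, which is known as a growth-restraining RNA, fell at all 11 probe sets, by -1.50 to -2.27 on the log2 scale. For 1452906_at the 6-month arrays ran from 2704 through a median of 3273 to 3430, and the 14-month arrays from 502.6 through 994.2 to 1165. The highest array at 14 months was below the lowest at 6 months, and the log2 difference was -1.83 ± 0.12 (SE; limma adjusted p = 7.71e-10). The largest Meg3 difference was at 1426758_s_at, where signals of 1844 to 2252 (median 2033) gave way to signals of 270.1 to 621.9 (median 407.6), a log2 difference of -2.27 ± 0.10 (limma adjusted p = 7.409e-12). Rian, the small nucleolar RNA host in the same domain, fell at all 4 probe sets. Its probe set 1452899_at measured 877 to 1017 (median 987.9) at 6 months and 356.2 to 459.8 (median 418.5) at 14 months. The 2 sets of 9 arrays again did not overlap, and the log2 difference was -1.23 ± 0.05 (limma adjusted p = 2.783e-12). The other Rian probe sets differed by -1.42 (1427580_a_at), -0.87 (1428055_at) and -1.71 (1440001_at). Of the other genes listed for the domain, Mirg, a host of microRNAs, was lower (-0.63) and Dlk1, which encodes a membrane ligand, was higher (1.16); these were the only 2 of 5 that were tested.

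Malat1, the nuclear speckle RNA, fell at all 7 of its probe sets in brain, by -1.33 to -2.52. At 1438403_s_at the 6-month arrays lay between 8257 and 10052 with a median of 9860, and the 14-month arrays between 2874 and 4931 with a median of 3906. No array crossed between the durations (log2 difference -1.33 ± 0.08, limma adjusted p = 1.98e-10). All 3 QH2 arrays at 6 months read 10052 here because quantile normalisation gives equal ranks at the top of the array the same value, so the probe set's spread there is understated. The dimmer 1452378_at showed the largest difference, from 503.3 to 919.3 (median 731.2) down to 103.4 to 158 (median 136.5), a log2 difference of -2.52 ± 0.10 (limma adjusted p = 1.373e-12). The remaining probe sets differed by -1.33 (1418188_a_at), -1.51 (1418189_s_at), -1.99 (1427285_s_at), -1.69 (1429060_at) and -1.51 (1436202_at).

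Kcnq1ot1 fell at all 5 of its tested probe sets. For 1457781_at the arrays ran from 168.9 to 226.6 (median 183.9) at 6 months and from 40.83 to 108.5 (median 69.44) at 14 months, without overlap (log2 difference -1.34 ± 0.12, limma adjusted p = 4.645e-08). For 1458161_at they ran from 178.4 to 289.5 (median 243.6) and from 89.22 to 188.6 (median 136.3), with the highest later array just inside the earlier range (-0.82 ± 0.12). The others were 1441588_at (-1.10), 1446255_at (-1.16) and 1442029_at (-0.43). The last was not called in the signals as deposited (limma adjusted p = 0.4435), in which the median of all tested probe sets lay 0.42 higher at 14 months, nor with the Actb ratio as a covariate (0.1073). That ratio lay between 1.746 and 1.946 in brains at 6 months and between 1.656 and 1.786 at 14 months, and its part was not tested further. Of 5 tested protein-coding neighbours in the Kcnq1 domain, 3 were higher and none lower, beside 56.2% called over all tested probe sets: Cd81, a tetraspanin (0.50), Tssc4 (0.23) and Osbpl5, a lipid transfer protein (0.46).

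Neat1, the paraspeckle scaffold, gave the only rise among the 29 beside a small fall. Its brighter probe set 1428083_at measured 161.6 to 329.4 (median 261.2) at 6 months and 129.2 to 290.4 (median 169.9) at 14 months, with broad overlap (log2 difference -0.43 ± 0.12, limma adjusted p = 0.003653). In the signals as deposited the sign turned (0.035, limma adjusted p = 0.8353). The dim 1442881_at went the other way, from 7.483 to 26.64 (median 18.27) to 20.18 to 47.22 (median 25.28; log2 difference 0.72 ± 0.23, limma adjusted p = 0.01289). That rise was lost with scaling to the 75th percentile (limma adjusted p = 0.07524). With the Actb ratio as a covariate neither Neat1 difference was called (limma adjusted p = 0.3327 and 0.2292).

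Lower signals were called on each diet. The control diet gave 26 lower probe sets (16.6% of all tested were lower), Q10 gave 24 (14.2%), and QH2 gave 28 lower (17.5%) and 1 higher. Leaving out any 1 of the 18 brain arrays left 29 of 29 called. The counts that follow stand beside the same 56.2% of all tested probe sets called. Of 16 tested paraspeckle proteins 2 were higher and 7 lower (median -0.02), among them Sfpq (-0.88), Hnrnpa1 (-1.01), Taf15 (-0.94) and Tardbp (-0.47) on the lower side and Rbm14 (0.41) and Hnrnpk (0.38) on the higher. Of 25 speckle and splicing proteins 5 were higher and 13 lower (median -0.17), with Luc7l2 at -0.84, Srsf5 at -0.76, Srrm2 at -0.41 and U2af1 at 1.44. Among 24 other noncoding RNAs 6 were higher and 7 lower; the neuronal Snhg11 and Miat were both at -1.54 and Gas5 at -0.29, while Airn (1.09), Snhg1 (0.88), Snhg6 (0.64) and Dleu2 (0.59) were higher.

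Cell markers, summed here after normalisation within brain, moved with duration as well. Of 8 neuron markers 2 were higher and 5 lower (median -0.17), with sums of 27734 to 31969 at 6 months and 26311 to 28034 at 14 months. The astrocyte markers (4 of 5 higher, median 0.49) summed to 4369 to 5293 and then 5967 to 6898. The oligodendrocyte markers (4 of 4 tested higher, median 0.49) summed to 9607 to 12755 and then 13209 to 16839. Choroid plexus markers (5 of 5 higher, median 0.40) summed to 7225 to 10378 and then 10081 to 11815. The part of these shifts in the fall of the noncoding RNAs was not tested.

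**Figure D2:**
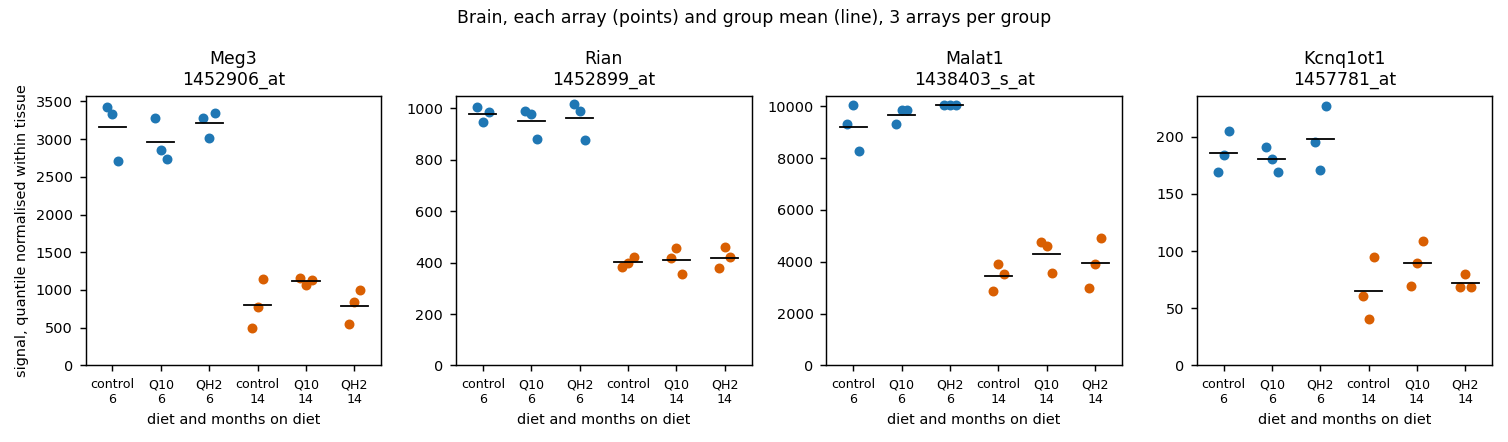
Brain signal (quantile normalised within brain, linear axis) of 1 probe set each of Meg3, Rian, Malat1 and Kcnq1ot1 by diet and duration; each point is 1 array, blue at 6 months and orange at 14 months, and lines are means of 3. In all 4 panels every orange point lies below every blue point, on each diet.

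In the heart all 6 calls among the 16 tested probe sets were of Malat1. It was lower at 14 months at 6 of its 7 probe sets, where 18.8% of all probe sets were called (9.46% higher, 9.39% lower). The brightest, 1438403_s_at, ran from 978.3 to 1715 (median 1507) at 6 months and from 208.7 to 984.3 (median 467.6) at 14 months. A single control array at 14 months, at 984.3, reached into the earlier range (log2 difference -1.70 ± 0.22, limma adjusted p = 2.941e-05). Malat1 1418188_a_at went from 223 to 504.4 (median 314.5) to 87.1 to 205.4 (median 137.7) without overlap, a log2 difference of -1.21 ± 0.13 (limma adjusted p = 5.147e-06). Malat1 1452378_at went from 76.37 to 145.8 (median 101.9) to 31.66 to 58.65 (median 39.28), again without overlap (-1.36 ± 0.15). The 2 without overlap compare with 1.36% of all tested probe sets.

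The remaining Malat1 differences in heart were -1.15 (1418189_s_at), -0.97 (1427285_s_at) and -0.68 (1429060_at), and 1436202_at was at -0.25 (limma adjusted p = 0.6681). The normalisation mattered in this organ. In the signals as deposited the median of all probe sets lay 0.81 higher at 14 months; 4 of the noncoding RNA probe sets were then called higher and 3 lower, in place of 0 and 6, and Malat1 1429060_at turned to 0.168 (limma adjusted p = 0.3834). Neat1 1428083_at was at -0.51 (limma adjusted p = 0.1172), Kcnq1ot1 1458161_at at 0.05, and the 6 Meg3 probe sets between -0.58 and 1.18, none of them called. By diet, 4 Malat1 probe sets were lower on control diet (1.00% of all were lower), 5 on Q10 (5.53%) and 1 on QH2 (0.899%). Of 15 paraspeckle proteins 4 were higher and 2 lower, with Sfpq at 0.66, and of 25 speckle and splicing proteins 5 were higher and 4 lower. These list counts stand beside 9.46% of all tested probe sets higher and 9.39% lower over diets.

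Liver changed in the opposite direction. Of its 20 tested probe sets 7 were higher and 1 lower at 14 months, against 20.8% called over all probe sets (11.2% higher, 9.53% lower), and the median log2 difference was 0.26 against -0.02. Malat1 rose at 4 of 7 probe sets. The 14-month arrays include the control and QH2 livers on which the genes were chosen. The Malat1 values in liver, and their part in the counts, are therefore descriptions, and no test is read from them. At 1418188_a_at the 6-month arrays measured 486.4 to 1310 (median 660.8) and the 14-month arrays 1267 to 2528 (median 1933). The ranges touched only at their ends (log2 difference 1.37 ± 0.12). At the brightest, 1438403_s_at, liver arrays at 6 months spread from 355.4 to 4186 (median 2472), and those at 14 months from 2957 to 5683 (median 4088). The log2 difference there was 1.03 ± 0.29, and it was not called with scaling to the 75th percentile. Malat1 1418189_s_at (1.19) and 1452378_at (1.00 ± 0.13; 31.65 to 104.5, then 89.62 to 228) were also higher, whereas 1427285_s_at (0.26), 1429060_at (-0.14) and 1436202_at (0.45) were not called.

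Kcnq1ot1, the silencing RNA of the Kcnq1 domain, rose in liver at all 3 tested probe sets. For 1458161_at, signals of 15.36 to 63.1 (median 23.92) at 6 months became 66.14 to 154.4 (median 107.2) at 14 months. This was the 1 probe set without overlap between the durations, where 0.514% of all probe sets were higher without overlap (log2 difference 1.68 ± 0.17, limma adjusted p = 4.962e-06). Signals at 1457781_at went from 6.178 to 35.97 (median 16.91) to 27.36 to 61.55 (median 43.76; 1.31 ± 0.18, limma adjusted p = 9.724e-05), and 1442029_at was at 0.74 ± 0.20. Neat1 1428083_at was not called (0.25, limma adjusted p = 0.3269). Meg3 1436057_at was lower (-0.90 ± 0.28, limma adjusted p = 0.02979), a call that held in 11 of 18 fits without 1 array and was lost without the filter on low signals (0.05668) and in the signals as deposited (0.3661), where 7 probe sets were higher and 0 lower.

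Within each diet, 3 livers at 14 months were also compared with 3 at 6 months. Control livers gave 5 higher (7.36% of all were called, 5.49% higher and 1.87% lower): Malat1 1418188_a_at (1.98), 1418189_s_at (1.87) and 1452378_at (1.62), and Kcnq1ot1 1457781_at (1.38) and 1458161_at (2.21). The same 5 probe sets were higher on QH2 (2.35% of all called, 1.62% higher), at 1.24, 1.00, 1.13, 1.70 and 1.75. The genes were chosen on the control and QH2 livers at 14 months. The Malat1 values of these 2 diets are therefore descriptions, and no test is read from them. On Q10, with 12.5% of all called, 2 were higher (5.88% of all), Malat1 1418188_a_at (0.89) and Kcnq1ot1 1458161_at (1.08), and 5 Meg3 probe sets were lower (6.59% of all): 1426758_s_at (-1.36), 1436713_s_at (-1.49), 1439380_x_at (-1.44 ± 0.22, limma adjusted p = 0.000907), 1452183_a_at (-2.03) and 1452905_at (-1.85). The dim Meg3 1428764_at and 1429257_at went the other way on Q10, without a call. Their mean signals were 5.066 and 5.282 at 6 months and 12.97 and 12.99 at 14 months. Over diets, 20.8% of all tested probe sets were called (11.2% higher, 9.53% lower), and the list counts here stand beside that share. Of 16 paraspeckle proteins 6 were higher and none lower (median 0.25), led by Sfpq (1.40) and Taf15 (1.39), with Ewsr1 (0.71), Smarca4 (0.51), Nono (0.41) and Hnrnpk (0.30). Of 25 speckle and splicing proteins 7 were higher and none lower (median 0.23), among them U2af1 (0.95), Luc7l2 (0.93), Srrm2 (0.80), Sf3b1 (0.61) and Son (0.56). Xist (0.74) and Snhg8 (0.27) were the higher 2 of 22 other noncoding RNAs. All 5 tested B cell markers were higher as well (median 1.94), and their part was not tested.

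In kidney 7 of 18 tested probe sets were higher and 1 lower at 14 months, against 40.9% called over all (19.8% higher, 21.1% lower); in the signals as deposited 9 were higher and none lower, and with scaling to the 75th percentile 6 were higher and 2 lower. Kcnq1ot1 gave the largest rises. At 1459443_at the arrays ran from 2.244 to 22.39 (median 15.76) at 6 months and from 25.11 to 67.23 (median 43.98) at 14 months (log2 difference 1.92 ± 0.21, limma adjusted p = 2.778e-06). At 1458161_at they ran from 14.76 to 89.16 (median 42.56) and from 97.24 to 183.1 (median 130; 1.55 ± 0.18, limma adjusted p = 5.022e-06). Both were without overlap, which 2.59% of all probe sets were on the higher side. Kcnq1ot1 1457781_at was higher by 0.93, and 1442029_at (0.54) was not called (limma adjusted p = 0.05427).

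Neat1 rose in kidney at 1428083_at, from 367.7 to 968.8 (median 792.5) to 636.8 to 1588 (median 1126), with overlapping ranges (log2 difference 0.57 ± 0.14, limma adjusted p = 0.004198). The Malat1 probe sets disagreed with each other. Higher signals were found at 1418188_a_at (0.42), 1436202_at (0.67) and 1452378_at (0.48; 123.8 to 364.8, then 180.9 to 453.9), the last 2 called in 8 and 6 of 18 fits without 1 array. With scaling to the 75th percentile the first and last were not called (limma adjusted p = 0.08615 and 0.05727). The probe set 1427285_s_at was lower, with 48.91 to 106 (median 64.09) at 6 months and 17.12 to 53.76 (median 45.33) at 14 months (-0.80 ± 0.19, limma adjusted p = 0.003017, and 0.268 in the signals as deposited). The platform table gives 1427285_s_at and 1452378_at the same source sequence record. The bright 1438403_s_at was at -0.01, with a 95% interval of -0.20 to 0.18.

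Control kidneys gave 2 lower probe sets (4.67% of all), both of Malat1: 1427285_s_at (-1.09) and 1429060_at (-0.64). Q10 kidneys gave 5 higher (12.5% of all) and 1 lower (15.8%): Kcnq1ot1 1442029_at (1.24), 1458161_at (1.49) and 1459443_at (1.15), Malat1 1418188_a_at (0.62) and 1436202_at (1.20), and on the lower side Malat1 1427285_s_at (-0.94). QH2 kidneys gave 4 higher (6.32% of all): Neat1 1428083_at (1.14) and Kcnq1ot1 1457781_at (1.30), 1458161_at (2.25) and 1459443_at (3.60). Over diets, 40.9% of all tested probe sets were called (19.8% higher, 21.1% lower), and the list counts here stand beside that share. Of 16 paraspeckle proteins 8 were higher and none lower, with Sfpq at 1.46 and Taf15 at 1.59. Of 25 speckle and splicing proteins 15 were higher, such as Luc7l2 (1.00), Srrm2 (0.83) and Tra2a (0.76), and 1 was lower (Srsf5, -0.50). In the Kcnq1 domain 4 of 8 neighbours were lower: Tssc4 (-0.52), Phlda2 (-0.41), Cd81 (-0.36) and Slc22a18 (-0.20). Of 20 other noncoding RNAs 9 were higher, including Pvt1 (1.24), Snhg14 (0.86) and Xist (0.75), and 2 were lower, Jpx (-0.41) and Dleu2 (-0.38). B cell markers (5 of 5 higher, median 3.33) and macrophage markers (7 of 11 higher) rose in the same arrays, and the summed adipocyte markers ranged from 23.27 to 2992 between kidneys; their part was not tested.

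**Figure D3:**
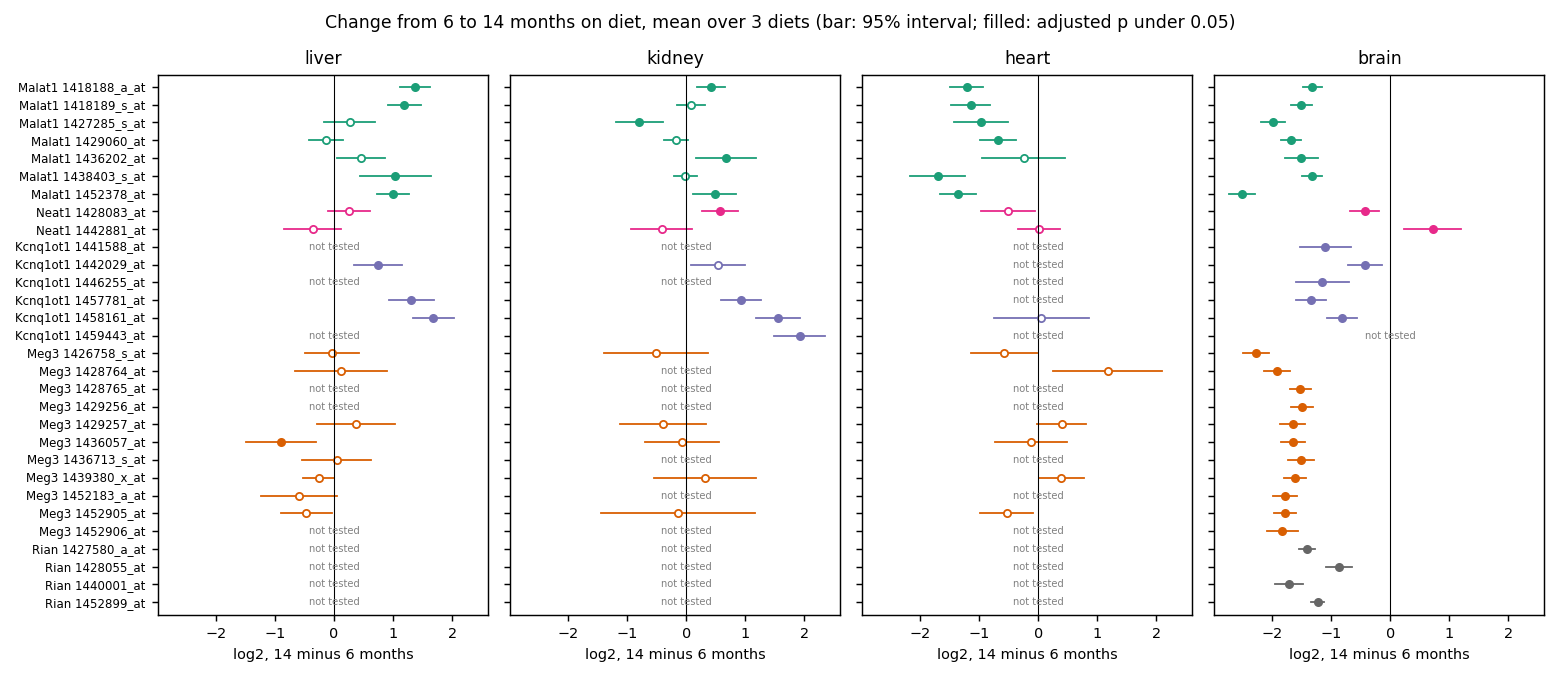
Log2 difference between 14 and 6 months, averaged over diets, for every tested probe set of the 5 RNAs in each organ; points are limma estimates, bars 95% intervals, and filled points passed an adjusted p under 0.05. Brain points lie left of 0 except 1 Neat1 probe set, heart calls are all Malat1 and left of 0, and most liver and kidney calls lie right of 0.

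The difference in course between organs was itself tested, for the brightest probe set of Malat1, Kcnq1ot1, Neat1 and Meg3, the RNAs tested in all 4, in a joint fit chosen after the data were seen. The labels do not tie a mouse's organs together, so organs were treated as independent. For Malat1 1438403_s_at the liver change exceeded the heart change by 2.55 ± 0.30 (SE, log2), the brain change by 2.41 and the kidney change by 0.93. The liver change uses the control and QH2 livers on which the genes were chosen. These values are therefore descriptions, and no test is read from them. The kidney change exceeded the heart change by 1.62 (limma adjusted p = 0.0001275) and the brain change by 1.48 (9.113e-05). Heart and brain (-0.14, 0.8021) did not differ by a call. The share of all probe sets called was 14.9% for liver against heart, 34.2% for liver against brain, 12.1% for kidney against heart, 32.4% for kidney against brain, 4.16% for liver against kidney and 18.4% for heart against brain.

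Kcnq1ot1 1458161_at divided the organs the same way. Its liver change exceeded that of heart by 1.55 (limma adjusted p = 0.003046) and that of brain by 2.50 (4.71e-07), and its kidney change exceeded them by 1.45 (0.006219) and 2.40 (1.087e-06). For Neat1 1428083_at kidney differed from heart (1.06, limma adjusted p = 0.004286) and brain (1.04, 0.001428), and liver differed from brain (0.70, 0.03148) while liver against heart was not called (0.72, 0.05346). For both RNAs liver against kidney and heart against brain were not called. For Meg3 1439380_x_at the liver, kidney and heart changes exceeded the brain change by 1.73 (limma adjusted p = 0.0001215), 2.30 (1.006e-06) and 2.32 (2.012e-06), and the other 3 pairs of organs were not called (0.2671 to 0.9744).

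Diet comparisons at a fixed duration called few of these probe sets, most of them in liver. Q10 and QH2 differ by reduction of the quinone ring, and both were given at the same dose and for the same times. At 6 months Neat1 1428083_at stood at 130.4, 242 and 152.7 in control livers, 676.2, 476.2 and 495.9 on Q10, and 138.8, 75.41 and 83.39 on QH2. Every Q10 liver lay above every other liver of that duration. Q10 exceeded control by 1.68 ± 0.30 (log2, n = 3 and 3; limma adjusted p = 0.0118), where 0.810% of all probe sets were called (0.785% higher, 0.0259% lower). This call was lost without control array 1, Q10 array 1 or Q10 array 2, the adjusted p ranging from 0.01021 to 0.0636, and in the signals as deposited (0.06914). QH2 lay below Q10 by -2.49 ± 0.30 (limma adjusted p = 0.0009477), where 0.988% were called (0.130% higher, 0.859% lower), and this held without any 1 of the 6 arrays.

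The same comparison of QH2 with Q10 in liver at 6 months called 3 more probe sets, all lower on QH2. Kcnq1ot1 1457781_at read 35.97, 35.16 and 21.63 on Q10, 6.178, 13.98 and 6.983 on QH2 and 21.42, 11.39 and 16.91 on control diet (-1.71 ± 0.32, limma adjusted p = 0.01169). Meg3 1439380_x_at read 86.75, 113.8 and 99.24 on Q10, 47.61, 51.51 and 39.65 on QH2 and 60.57, 58.89 and 51.07 on control diet (-1.09 ± 0.22, limma adjusted p = 0.01808). In both, Q10 livers were the highest and QH2 livers did not overlap with them. Kcnq1ot1 1458161_at was at -1.24 ± 0.29 (limma adjusted p = 0.04617). These 3 calls held in 2, 3 and 1 of 6 fits without 1 array. In the signals as deposited none of them was called (limma adjusted p = 0.2019, 0.4961 and 0.382), nor with only the groups compared (0.1507, 0.05396 and 0.09294), and the last held in 2 of 9 other settings. Of the 20 tested probe sets 17 were below 0 (median -0.95), and 16 were above 0 for Q10 against control (median 0.61). Both comparisons share the Q10 livers. The Meg3 probe sets did not all agree. Mean signals at the dim 1428764_at were 5.066 on Q10 and 17.9 on QH2, and at the dim 1429257_at 5.282 and 17.8. QH2 against control at 6 months called none of all probe sets (0.00%); 4 of the 20 had an unadjusted p under 0.05, as had 1911 of all, and Neat1 1428083_at was at -0.81 with a 95% interval of -1.44 to -0.19.

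At 14 months the probe set behind the choice of these genes was lowest on QH2. Malat1 1429060_at read 192.3, 235.7 and 267.8 on control diet, 164.8, 190.6 and 230.7 on Q10 and 69.32, 136.3 and 95.17 on QH2. The difference of QH2 from control was -1.24 ± 0.24, and 19 of the 20 probe sets were below 0 with a median of -0.75 against 0.01 for all; no probe set of any gene was called (0.00%), and no test is read from this comparison. Neat1 1428083_at in the same livers read 381.3, 204.3 and 411.1 on control diet, 198.3, 379.2 and 363.4 on Q10 and 152.6, 162.5 and 149.4 on QH2. QH2 against Q10 at 14 months called 2 probe sets lower, with 9.74% of all called (4.81% higher, 4.93% lower). These were Malat1 1429060_at, at -1.0 ± 0.24, and Neat1 1428083_at, at -0.96 (limma adjusted p = 0.04855). The comparison uses the same 3 QH2 livers on which the genes were chosen, so the Malat1 value is a description and no test is read from it. The calls held in 3 and 1 of 6 fits without 1 array. Both were lost in the signals as deposited, with only the groups compared, with the Actb ratio as a covariate and without Q10 arrays 2 and 3, the last a setting added after the data were seen. That ratio averaged 2.21 in these Q10 livers and 5.35 in the QH2 livers.

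Q10 against control at 14 months called 4 liver probe sets, all lower, with 6.21% of all called (3.88% higher, 2.33% lower). Meg3 1439380_x_at read 72.37, 67.21 and 82.12 on control diet and 45.03, 24.44 and 41.92 on Q10 (-1.02 ± 0.22, limma adjusted p = 0.009624), and 56.6, 53.02 and 60.68 on QH2. Meg3 1452905_at read 43.57, 26.14 and 75.94 on control diet and 23.04, 9.589 and 17.31 on Q10 (-1.44 ± 0.36, limma adjusted p = 0.02428). In both, every Q10 liver was below every control liver. Meg3 1452183_a_at was at -2.00 ± 0.53 with overlap (limma adjusted p = 0.03334). Malat1 1452378_at read 228, 183.4 and 195.9 on control diet and 117.9, 89.62 and 121 on Q10 (-0.89 ± 0.23). The genes were chosen on these same control livers, so the Malat1 value is a description and no test is read from it. All 12 macrophage markers (median 3.12) and all 5 tested B cell markers (median 3.58) were higher in these Q10 livers, and the Actb 3′ to 5′ ratio averaged 3.83 on control diet, 2.21 on Q10 and 5.35 on QH2. All 4 calls were lost with that ratio as a covariate, in the signals as deposited, with only the groups compared, and without Q10 arrays 2 and 3. Without 1 array they held in 5 (1439380_x_at), 2 (1452905_at), 2 (1452183_a_at) and 1 (1452378_at) of 6 fits.

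Diet differences that changed between the durations were tested as such. Stability without 1 array or under other settings was not assessed for these calls. The liver calls of Q10 against control at 14 months were themselves lost in the signals as deposited, with the Actb covariate and with only the groups compared. In liver, Q10 against control called 4 of the 20 probe sets with a lower difference at 14 than at 6 months, 2 of Meg3 and 1 each of Malat1 and Neat1 (2.33% of all were called, 1.00% higher and 1.33% lower). The Malat1 value uses the control livers on which the genes were chosen, so no test is read from it. QH2 against Q10 called 3, all Meg3 and all higher (2.02% of all, 0.999% higher and 1.02% lower). At Meg3 1439380_x_at, Q10 livers were above the other diets at 6 months and below them at 14 months. In kidney QH2 against Q10 called Kcnq1ot1 1459443_at higher (2.60% of all, 1.95% higher). None was called in limma's test in the other 9 comparisons of this kind, where 0 to 8 of the tested probe sets and 1340 to 2958 of all had an unadjusted p under 0.05.

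**Figure D4:**
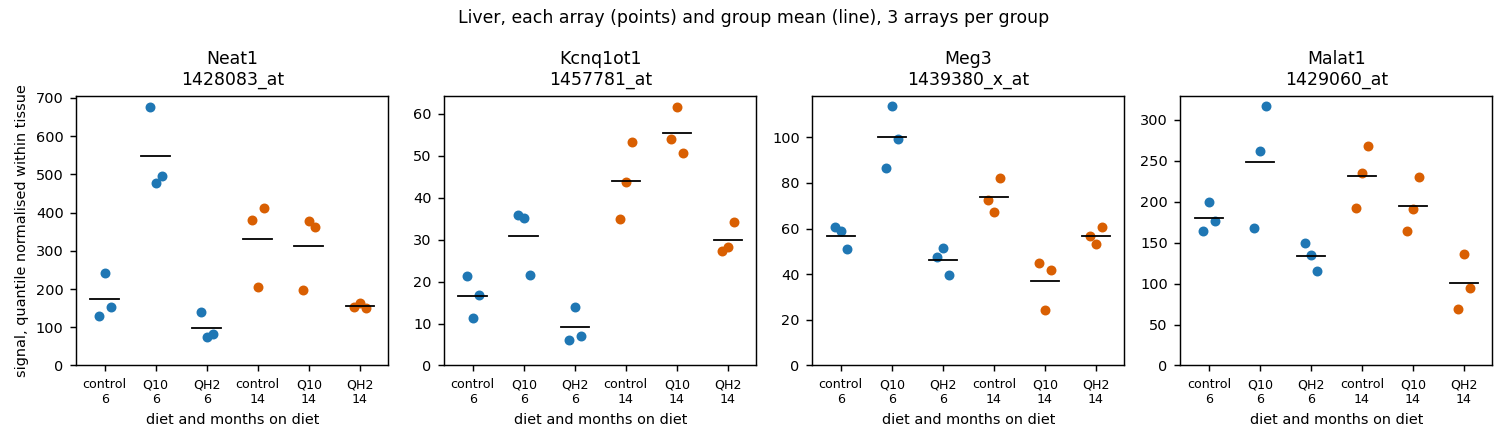
Liver signal (quantile normalised within liver, linear axis) of Neat1 1428083_at, Kcnq1ot1 1457781_at, Meg3 1439380_x_at and Malat1 1429060_at by diet and duration; each point is 1 array, blue at 6 months and orange at 14 months, and lines are means of 3. The Q10 livers at 6 months are highest for Neat1, Kcnq1ot1 and Meg3 among the blue points, and QH2 livers at 14 months are lowest for Neat1 and Malat1 among the orange points.

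In kidney the diet calls were on Kcnq1ot1 1459443_at at 6 months. It read 21.14, 22.06 and 14.93 on control diet, 22.39, 15.76 and 19.3 on Q10, and 2.244, 4.339 and 2.958 on QH2. The 3 QH2 kidneys were below all others, while control and Q10 kidneys overlapped. QH2 was lower than control by -2.30 ± 0.36 (limma adjusted p = 0.01597), with 0.192% of all probe sets called (0.00740% higher, 0.185% lower), and lower than Q10 by -2.29 ± 0.36 (0.02182), with 0.292% called (0.0370% higher, 0.255% lower). Both comparisons share the QH2 kidneys. The signals are near the bottom of the scale, and with an offset of 16 before the logarithm neither was called (limma adjusted p = 0.2119 and 0.181), nor with only the groups compared (0.2332 and 0.1821). Each held in 4 of 6 fits without 1 array, and was lost without array 1 or array 2 of the diet set against QH2. Kcnq1ot1 1458161_at pointed the same way against control without passing (-1.41, 95% interval -2.06 to -0.76, limma adjusted p = 0.0726). Q10 against control at 6 months was at -0.01 for 1459443_at (95% interval -0.76 to 0.74).

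At 14 months none of the 18 kidney probe sets was called in limma's test, with 0.670% of all called for Q10 against control, 0.00% for QH2 against control and 6.04% for QH2 against Q10. Unadjusted p-values under 0.05 numbered 2, 0 and 1 of the 18, against 3392, 1577 and 5885 of all. Kcnq1ot1 1459443_at was then at 0.29 for QH2 against control (95% interval -0.46 to 1.04). For Q10 against control at 6 months 1 of 18 was under 0.05, against 1110 of all, and none was called (0.00%).

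**Figure D5:**
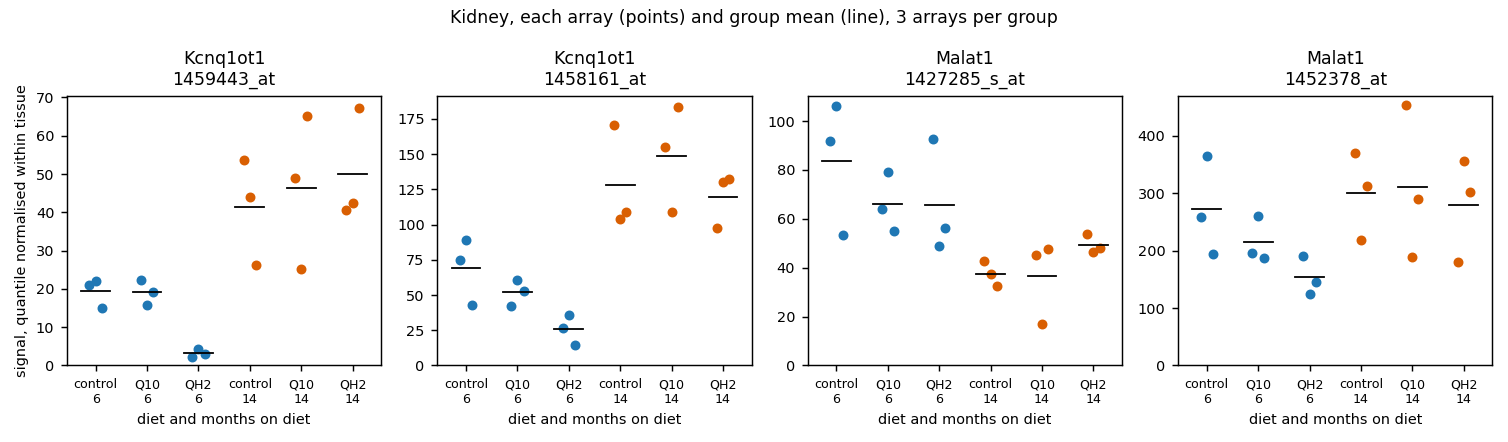
Kidney signal (quantile normalised within kidney, linear axis) of Kcnq1ot1 1459443_at and 1458161_at and of Malat1 1427285_s_at and 1452378_at by diet and duration; each point is 1 array, blue at 6 months and orange at 14 months, and lines are means of 3. The 6-month QH2 points of Kcnq1ot1 1459443_at, between 2.244 and 4.339, are below all others, and on each diet the 14-month mean is above the 6-month mean for Malat1 1452378_at and below it for 1427285_s_at.

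No diet comparison called any of these probe sets in heart or brain in limma's test. In heart 0.0666% of all probe sets were called for QH2 against Q10 at 6 months and 0.00% in the other 5 comparisons, and 0 or 1 of the 16 had an unadjusted p under 0.05 in each, against 1273 to 2989 of all. Malat1 1438403_s_at in heart differed by 0.21 between QH2 and control at 14 months (95% interval -0.59 to 1.01) and by 0.43 between Q10 and control (-0.37 to 1.23). In brain 0.0111% were called for QH2 against control at 14 months and 0.00% in the others.

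Small differences around Q10 in brain at 14 months did not pass. For Q10 against control 27 of 29 were above 0 (median 0.33 against -0.01 for all), with 13 at an unadjusted p under 0.05 and 1428 of all. All 11 Meg3 probe sets were among the 27, between 0.26 and 0.62, with limma adjusted p of 0.7736 or more. QH2 was below Q10 for 25 of 29 (median -0.28), with 12 under 0.05 and 1281 of all, and for 11 of 11 Meg3 probe sets, between -0.35 and -0.54. These comparisons share the 3 Q10 brains. Neat1 1428083_at ran from 240.2 to 290.4 on Q10, above its 133 to 169.9 on control diet and 129.2 to 192.2 on QH2. The Q10 brains did not overlap with the others there, and the probe set was not called in either comparison. Meg3 1452906_at read 502.6, 769.9 and 1148 on control diet, 1165, 1067 and 1137 on Q10 and 548, 838.2 and 994.2 on QH2. The Q10 brains lay close together and near the top of the control range. The difference of Q10 from control was 0.56 (95% interval 0.11 to 1.00), that of QH2 from control 0.01 (-0.43 to 0.46). At 6 months the counts under 0.05 were 2 of 29 for QH2 against control, 0 for Q10 against control and 0 for QH2 against Q10, against 2314, 1651 and 2069 of all. Rian 1452899_at differed by at most 0.06 between any diets at 14 months, with intervals within -0.17 and 0.25.

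The genes whose signals followed each RNA most closely were listed over 10414 genes tested in all 4 organs (10415 for Rian), by the Pearson r within an organ over 18 arrays, averaged over the 4 organs. The 18 arrays of an organ share the 2 durations, so these r values describe likeness and carry no p. For Kcnq1ot1 1458161_at the closest were Sfpq, a core paraspeckle protein (0.821), Srrm2, a scaffold of nuclear speckles (0.806), Gdap10 (0.794), Luc7l2, a splicing factor (0.753) and Mtm1 (0.742). For Neat1 1428083_at they were Luc7l2 (0.727), Ttc14 (0.687), Sfpq (0.681), Ccnl2, a cyclin of the splicing machinery (0.650), and Fam193b (0.645). For Malat1 1438403_s_at they were Sfpq (0.715), Thoc2, a subunit of an mRNA export complex (0.697), Pds5a (0.683), Ccnl2 (0.673) and Stau2 (0.652). Sfpq was thus among the closest 5 for these 3 RNAs, though its r with Malat1 ranged from 0.306 to 0.946 between organs.

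Meg3 and Rian had looser companions. For Meg3 1439380_x_at the list was Cdk10 (0.617), Setd4 (0.579), Dlgap1, a postsynaptic scaffold protein (0.570), Axin2 (0.539) and Syt1, a synaptic vesicle calcium sensor (0.529). For Rian 1452899_at it was Gria2, a glutamate receptor subunit (0.520), Commd4 (0.519), Ccdc124 (0.512), Wipf3 (0.511) and Fzr1 (0.505). Over the 24 group means, which are dominated by differences between organs, the closest were Psd3 for Meg3 (0.976), Cpne5 (0.979) and the postsynaptic scaffold Dlg4 (0.977) for Rian, Sfpq for Kcnq1ot1 (0.950), Nsd3 for Malat1 (0.918) and Ccnd1 for Neat1 (0.911). Within brain, over 18 arrays that share the 2 durations, Malat1 correlated with Rian at 0.966, with Meg3 at 0.955, with Kcnq1ot1 at 0.846 and with Neat1 at 0.555. In the same arrays Meg3 correlated with Rian at 0.954 and with Kcnq1ot1 at 0.922.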

How the data were processed

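Total RNA of 4 organs of SAMP1 females was labelled with biotin and hybridised to Affymetrix arrays, per the labels' protocols. The deposited values are linear signal intensities per probe set, made by the authors with GCOS, per the submitters' processing notes; the sources used here give neither its version nor its scaling. Of 45101 probe sets, the platform table names 34945 with 1 symbol, 932 with several and 9160 with none. The 64 control probe sets were removed. Intensities were quantile normalised within each organ, 1 was added and log2 taken, and probe sets with a mean above the 40th percentile were tested (27022 per organ). limma 3.58.1 (R 4.3.3) fitted 6 group means per organ over 18 arrays, with an intensity trend in eBayes and Benjamini-Hochberg adjustment over all tested probe sets of a comparison. A call is an adjusted p under 0.05. Levels between organs used quantile normalisation over 72 arrays. Figures were drawn with Python 3.11.15 and matplotlib 3.10.9.

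Called probe sets of the 5 genes are named, or covered by a range or a count. The brain and heart calls within a diet are given as counts only. For genes without a call, values of some probe sets are given and not of all. Companion lists are described by counts and medians. The members and lists were chosen with earlier results of these data known. Replicates are separate mice, and 3 per group limit the precision. Within an organ, same-numbered arrays of different groups had median correlations of deviations from -0.00662 to 0.00488, and no pairing was used. Between organs, same-numbered arrays of the same diet and duration had a median of 0.009305 over 108 pairs, against -0.007064 for differing numbers. Of these 108 pairs 8 were over 0.1, the highest at 0.3636. The labels do not say whether such arrays share a mouse. The comparison of QH2 with control at 6 months was tested on simulated data, in which 100 of 27022 probe sets changed 2-fold and 100 changed 4-fold; brain recovered 68 and 98 of them, kidney 62 and 76, heart 40 and 71, and liver 29 and 57, with 6 to 16 false calls. No 2 arrays of a group shared over 1.423% of their values. Alternatives were the signals as deposited, scaling to the 75th percentile, an offset of 16, other filters, no trend, an Actb ratio covariate, a replicate block, only the groups compared, and leaving out arrays.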

Additional observations from a re-analysis of the deposited data

Results flagged for a closer look

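All entries are differences between 2 groups' effects, each fitted directly with limma. Their stability without 1 array or under other settings was not assessed. In liver the difference of Q10 from control was lower at 14 than at 6 months for Malat1 1452378_at (-1.37 ± 0.32 SE on the log2 scale), Neat1 1428083_at (-1.75 ± 0.42, limma adjusted p = 0.03445), Meg3 1439380_x_at (-1.815 ± 0.31, 0.005177) and Meg3 1452905_at (-2.03 ± 0.51, 0.04161). The Malat1 entry uses the control livers on which the genes were chosen, so no test is read from it. The difference of QH2 from Q10 was higher at 14 than at 6 months for Meg3 1426758_s_at (2.32 ± 0.54, 0.03376), 1439380_x_at (1.74 ± 0.31, 0.01675) and 1452905_at (2.09 ± 0.51, 0.04164). Both rest on the same 6 Q10 livers, whose macrophage markers summed to 5338 to 20068 at 14 months and 1892 to 3531 at 6 months. In kidney the QH2 difference from Q10 was higher at 14 months for Kcnq1ot1 1459443_at (2.455 ± 0.51, 0.01724).

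The change from 6 to 14 months differed between organs, in a joint limma fit added after the data were seen. For Malat1 1438403_s_at the differences were 2.55 (liver minus heart), 2.41 (liver minus brain), 1.62 (kidney minus heart) and 1.48 (kidney minus brain). The Malat1 differences with liver use the livers on which the genes were chosen, so no test is read from them. For Kcnq1ot1 1458161_at the differences were 1.55, 2.495, 1.45 and 2.40 in the same order. For Neat1 1428083_at they were 0.70 (liver minus brain), 1.055 (kidney minus heart) and 1.04 (kidney minus brain). For Meg3 1439380_x_at they were 1.73 (liver minus brain), 2.30 (kidney minus brain) and 2.32 (heart minus brain). No cause was tested for any of these.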

How the results depend on the processing

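Under every alternative run, the total called in either direction for 14 against 6 months over diets stayed within 1.5 times its value in each organ. The directions moved: in the signals as deposited Malat1 1429060_at in heart turned to 0.168 and Neat1 1428083_at in brain to 0.035, and the calls became 4 higher and 3 lower in heart (from 0 and 6), 9 and 0 in kidney (from 7 and 1) and 7 and 0 in liver (from 7 and 1), while 75th percentile scaling gave 6 and 2 in kidney. Without 1 array brain stayed at 29, heart ranged from 6 to 7, kidney from 6 to 9 and liver from 7 to 9. Diet calls rested on fewer arrays. In liver at 6 months Q10 against control (1 call) gave 0 as deposited and 0 to 2 without 1 array; QH2 against Q10 (4 calls) gave 1 as deposited, 1 with only the groups compared and 1 to 6 without 1 array. In liver at 14 months Q10 against control (4 calls) gave 1 without the trend, 0 as deposited, with only the groups compared, without Q10 arrays 2 and 3 and with the Actb covariate, and 0 to 5 without 1 array. QH2 against Q10 there (2 calls) gave 4 with offset 16 or the 60th percentile filter, 1 without filter, without trend or with the replicate block, 0 in those 4 same settings, and 0 to 5 without 1 array. QH2 against control there, on which the genes were chosen, gave 5 with only the groups compared, from which nothing is read. In kidney at 6 months QH2 against control (1 call) gave 3 with 75th percentile scaling, 2 as deposited, 0 with offset 16, the 60th percentile filter or only the groups compared, and 0 to 3 without 1 array; QH2 against Q10 (1 call) gave 2 with the Actb covariate, 0 in those last 3 settings and 0 to 1 without 1 array. Brain Q10 against control and heart QH2 against Q10, both at 14 months with 0 calls, gave 0 to 3 and 0 to 2 without 1 array. The replicate block kept 62 of 64 called results. As deposited, the median of all probe sets moved to 0.34 for Q10 against control in liver at 14 months. The causes were not tested.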
